A study of Homo sapiens with 12 samples.

Results

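The ADAMTS and ADAM proteases described here are 9 genes of the 23459 rows of a raw count table, looked up by Entrez ID: the secreted proteases ADAMTS1, ADAMTS6, ADAMTS12 and ADAMTS15 and the membrane proteases ADAM8, ADAM9, ADAM10, ADAM17 and ADAM19. They were listed with the CPM values of these same libraries in view, so they were chosen by the readout that is reported. Their levels, fold changes and calls are therefore given as a description, without p-values. All 9 were found in the table and all 9 passed the filter on low counts.

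RNA sequencing was performed on MCF10A cells, an immortalized, non-tumorigenic human mammary epithelial line. Every library came from cells that carry a doxycycline-inducible YAP5SA allele (a YAP mutant that escapes inhibition by the Hippo kinases) and that were infected as a population with a JUN overexpression vector or the empty vector. The cells received 100 ng/ml doxycycline (Dox) or its solvent ethanol (EtOH), which gives 4 groups of 3 libraries. Induction below means Dox against EtOH. No library with Dox lacked the allele, so effects of the drug itself and of YAP5SA cannot be told apart. The empty-vector groups are called vector EtOH and vector Dox, and those with the JUN vector JUN EtOH and JUN Dox. The study calls the 3 libraries of a group biological replicates, and its methods give 16 h as the time with doxycycline before analysis. The comparisons ask how induction and the JUN vector, alone and together, go with the levels of these protease mRNAs.

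Total counts were 18594867 to 28993487 per library. JUN had 47.6 ± 10.5 CPM (mean ± SD, n = 3) in vector EtOH and 1280 ± 187 CPM in JUN EtOH (log2 fold change 4.75 ± 0.18 SE, edgeR adjusted p = 1.74e-10). JUN also rose with induction in vector cells, to 190 ± 4.15 CPM in vector Dox (1.99 ± 0.16, edgeR adjusted p = 3.09e-07). In JUN cells induction gave -0.03 ± 0.15 for JUN (edgeR adjusted p = 0.91). Induction in vector cells thus includes a rise of JUN that induction in JUN cells did not show. The YAP target CCN1 was induced in both vector cells (4.79 ± 0.14, edgeR adjusted p = 1.31e-11) and JUN cells (4.12 ± 0.14, edgeR adjusted p = 7.48e-11). YAP1 itself, which cannot tell the allele from the endogenous gene, did not pass the test on induction in vector cells (0.40 ± 0.16, edgeR adjusted p = 0.0819). All 10 mammary epithelial markers were detected, with summed levels of 12100 to 14200 CPM in the EtOH libraries, 7400 to 8670 CPM in vector Dox and 7770 to 11500 CPM in JUN Dox. The fibroblast list summed to 110 to 161 CPM, most of it PDGFRA. Of this list, COL1A2 had at most 1 count in a library, while LUM (log2 fold change 3.09, edgeR adjusted p = 1.69e-06) and DCN (1.56, edgeR adjusted p = 0.00103) rose with the JUN vector alone. COL1A1 (0.00, edgeR adjusted p = 0.989) and PDGFRA (-0.21, edgeR adjusted p = 0.139) did not rise there. The part of these markers in the results was not tested. The leukocyte list summed to 24.3 to 31.1 CPM in vector EtOH and to 1.45 to 3.52 CPM in JUN Dox, all but a trace of it CD14, while CD3E was at 0 in all libraries. The endothelial list stayed at or below 2.1 CPM. In these bulk libraries, fewer cells that express a gene and less of its RNA per cell cannot be told apart.

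ADAM proteases are type I membrane proteins that cut other membrane proteins close to the cell surface, a step called ectodomain shedding that frees EGF family growth factors, cytokines and Notch ligands or receptors. ADAMTS proteases lack the membrane anchor. They carry thrombospondin motifs and act in the extracellular matrix, where several of them cut proteoglycans such as versican and aggrecan. Both families are made as inactive precursors that furin-type convertases trim, and both are inhibited by TIMP proteins.

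Promoter sequences were read from RefSeq (GRCh38.p14), which held an entry for 6 of the 9 genes in the table used here and none for ADAMTS1, ADAMTS15 and ADAM9. The 250 bases upstream of ADAMTS6 (chr5:65481921-65482170, minus strand) and of ADAMTS12 (chr5:33891991-33892240, minus strand) are shown because these genes were higher both after induction and with the JUN vector than in vector EtOH. Capitals mark GGAATG, a core recognised by TEAD factors (the DNA-binding partners of YAP), read on either strand, and the first bases of the cyclic AMP response element TGACGTCA, whose last base lies at the gene start, just past the printed run.
ADAMTS6: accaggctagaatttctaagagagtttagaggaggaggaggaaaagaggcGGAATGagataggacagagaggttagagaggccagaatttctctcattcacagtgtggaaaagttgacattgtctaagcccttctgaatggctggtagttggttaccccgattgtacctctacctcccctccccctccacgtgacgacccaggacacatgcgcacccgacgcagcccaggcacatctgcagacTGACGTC
ADAMTS12: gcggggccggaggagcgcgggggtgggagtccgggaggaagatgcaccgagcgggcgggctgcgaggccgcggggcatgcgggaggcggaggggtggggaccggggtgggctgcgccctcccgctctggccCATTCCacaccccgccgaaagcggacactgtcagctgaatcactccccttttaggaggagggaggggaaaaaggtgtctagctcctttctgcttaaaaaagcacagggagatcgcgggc
GGAATG began at position -200 in ADAMTS6, at -119 in ADAMTS12 on the opposite strand (read as CATTCC) and, among the other promoters, at -227 in ADAM17, with positions counted from the gene start. It occurred in 14.0% of all 35116 RefSeq promoter windows of the same length, 250 bases before and 50 after the start. TGACGTCA occurred at position -7 of ADAMTS6 and in 1.8% of all windows. The AP-1 site TGACTCA was in 0 of the 6 windows and in 4.9% of all windows. The motifs share no overlap in these windows, and a match describes letters only.

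Transcript abundance differed widely between the 9 genes. On a scale of mean CPM per kilobase of the canonical transcript, which allows genes to be compared, ADAM9 led in all groups, with 32.8 ± 1.27 (SD, n = 3) in vector EtOH and 63.6 ± 9.46 in JUN EtOH. ADAM17 and ADAM10 followed in vector EtOH, with 7.45 ± 0.476 and 7.16 ± 0.809 CPM per kilobase, values closer to each other than their SD. The other 6 genes lay between 0.153 and 0.404 CPM per kilobase in vector EtOH. In JUN Dox, ADAMTS1 stood at 9.81 ± 1.93 and ADAMTS6 at 6.68 ± 0.944 CPM per kilobase, so that ADAMTS1 was within the spread of ADAM17 (10.2 ± 1.47) and ADAM10 (9.63 ± 1.46). The alignment was unspliced, so reads that cross exon junctions were probably lost and genes with many junctions for their length may be undercounted. The size of this was not measured. ADAMTS1 has 9 exons in its canonical transcript and ADAM9 has 22.

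The sum of the 4 ADAMTS genes, again in CPM per kilobase, was 1.03 ± 0.0532 in vector EtOH against 5.33 ± 0.229 after Dox, and with JUN it was 3.11 ± 0.301 in EtOH against 17.5 ± 2.90 after Dox. The sum of the 5 ADAM genes was 48.0 ± 2.18, 51.9 ± 4.09, 87.9 ± 11.7 and 79.5 ± 22.1 in the same order. The ADAMTS genes thus made up 2.11% ± 0.198 of the total over all 9 genes in vector EtOH and 18.5% ± 3.03 in JUN Dox, and the 3 libraries of JUN Dox (16.5% to 22%) lay above every other library. This share holds for the 9 listed genes and not for the 2 families. Outside the list, ADAM15 stood at 158 and ADAMTS13 at 5.53 CPM per kilobase in vector EtOH. Most of the ADAMTS sum in JUN Dox came from ADAMTS1 and ADAMTS6.

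**Figure D1:**
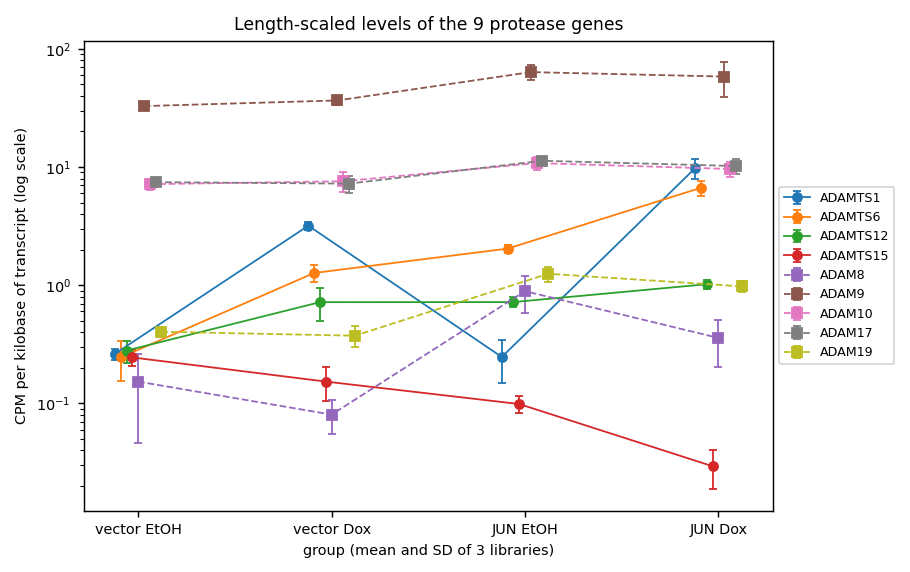
Mean level of each protease gene in CPM per kilobase of canonical transcript (log scale) in the 4 groups, with bars for the SD over 3 libraries and lines that only join the points of a gene. ADAM9 (brown squares) is highest in each group, and ADAMTS1 (blue) moves from 0.263 in vector EtOH to 9.81 in JUN Dox.

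ADAMTS1 (Entrez 9510) lies on chromosome 21 from 28208074 to 28217728 on the minus strand of GRCh37. It encodes a secreted protease that cuts versican and aggrecan. Its level was 1.41, 1.20 and 1.48 CPM in the 3 libraries of vector EtOH and 1.72, 0.716 and 1.41 CPM in those of JUN EtOH. It was 16, 18 and 15.5 CPM in vector Dox and 62.0, 42.6 and 48.0 CPM in JUN Dox. All libraries with doxycycline were above all libraries without it, the JUN Dox libraries were above the vector Dox libraries, and the 2 uninduced groups overlapped. The log2 fold change with induction was 3.59 ± 0.22 (SE, n = 3 per group) in vector cells, a 12-fold difference, and 5.31 ± 0.22 in JUN cells, a 39.8-fold difference. In JUN cells only 5 of the 14775 genes tested had a larger change with induction, as ADAMTS1 ranked 6 by size. The JUN vector alone gave -0.10 ± 0.29 (95% interval -0.71 to 0.51), whereas under induction it gave 1.62 ± 0.17. The interaction, the change on induction in JUN cells after subtracting that in vector cells, was 1.72 ± 0.33 on the log2 scale. Without vector EtOH replicate 1 or 3 it was 1.70 or 1.67 and no longer passed the threshold.

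ADAMTS6 (Entrez 11174, chromosome 5, 64444565 to 64777747, minus strand) encodes a secreted protease with roles in the microfibril matrix and in heart development. It had 1.44, 2.54 and 1.39 CPM in vector EtOH and 10.6, 7.62 and 9.71 after Dox. With JUN it had 16.3, 14.2 and 14.2 CPM in EtOH and 56.7, 46.2 and 43.7 after Dox. The 4 groups did not overlap and stood in that order from low to high. The log2 fold change was 2.40 ± 0.21 with induction in vector cells, 3.08 ± 0.21 with the JUN vector alone, 1.71 ± 0.17 with induction in JUN cells and 2.39 ± 0.17 with the JUN vector under induction. The interaction was -0.69 ± 0.27 (95% interval -1.26 to -0.11) and did not pass the threshold after adjustment over all genes. It was -0.992 without vector EtOH replicate 2, the library with the highest level of its group.

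ADAMTS12 (Entrez 81792, chromosome 5, 33523640 to 33892124, minus strand) encodes a protease known to cut cartilage oligomeric matrix protein. It had 2.47, 1.85 and 2.87 CPM in vector EtOH and 4.53, 8.29 and 5.66 in vector Dox. In JUN cells it had 6.56, 5.48 and 6.48 CPM with EtOH and 9.68, 8.13 and 8.53 with Dox. Vector EtOH was below all other libraries, while vector Dox overlapped both JUN groups. The log2 fold changes from vector EtOH were 1.35 ± 0.22 with induction and 1.36 ± 0.22 with the JUN vector. Induction in JUN cells and the JUN vector under induction each gave 0.51 ± 0.20 and were not called, although the JUN Dox libraries were all above the JUN EtOH libraries. Without vector Dox replicate 2, whose level was the highest of its group, the JUN vector under induction gave 0.79 and was called. Without vector Dox replicate 1 or 2, induction in JUN cells was called too, at 0.51.

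ADAMTS15 (Entrez 170689, chromosome 11, 130318540 to 130346540, plus strand), another proteoglycan-cutting protease, went the other way. It had 1.33, 1.75 and 1.35 CPM in vector EtOH and 1.22, 0.631 and 0.909 after Dox. In the JUN cells it had 0.528, 0.548 and 0.704 CPM without doxycycline and 0.150, 0.130 and 0.249 with it. Vector EtOH was highest and JUN Dox lowest with no overlap to any other group, and the 2 middle groups overlapped. These levels rest on 30 to 35 counts per library in vector EtOH and on 3, 3 and 7 counts in JUN Dox. The log2 fold change was -1.30 ± 0.33 with the JUN vector alone, -1.68 ± 0.44 with induction in JUN cells and -2.31 ± 0.41 with the JUN vector under induction, all 3 called lower. Induction in vector cells gave -0.67 ± 0.31 and was not called. Induction in JUN cells was no longer called without JUN Dox replicate 2 (-1.50), and without JUN Dox replicate 3 its value was -2.042.

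**Figure D2:**
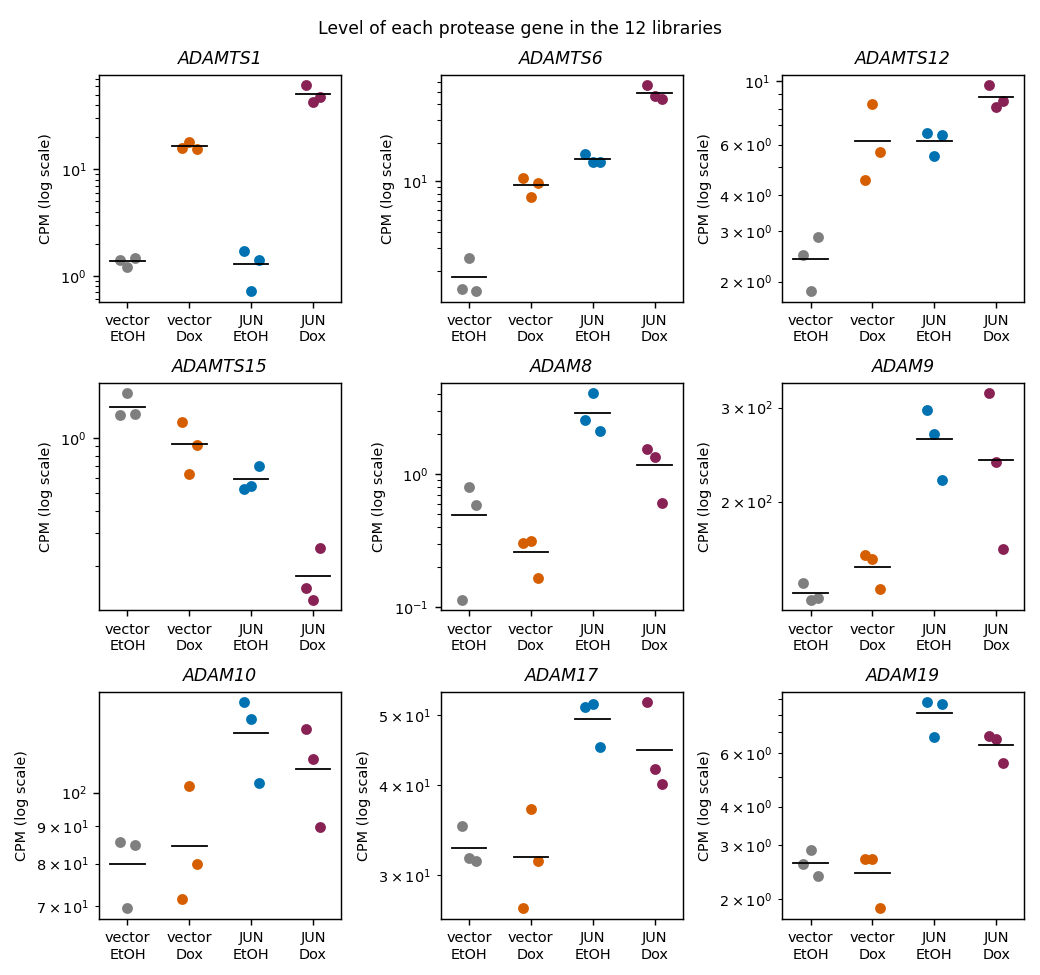
CPM (log scale, a separate range per gene) of each protease gene in each library, with points for the 3 libraries of a group and a bar for their mean. ADAMTS1 is high in both Dox groups, ADAMTS6 is highest in JUN Dox, ADAMTS15 is lowest there, and the 5 ADAM genes sit higher in the JUN groups.

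Among the membrane proteases, ADAM17 (Entrez 6868, chromosome 2, 9628615 to 9696861, minus strand) is the sheddase of TNF and of several EGF receptor ligands. It had 35.1, 31.7 and 31.4 CPM in vector EtOH and 27, 37 and 31.4 in vector Dox. The JUN cells had 51.3, 51.7 and 45.2 CPM before and 52.1, 42.1 and 40.1 after induction. Both JUN groups were above both vector groups, and induction left overlapping groups in either background. The log2 fold change with the JUN vector was 0.59 ± 0.13 without and 0.49 ± 0.13 with induction, both called. Induction gave -0.04 ± 0.13 (95% interval -0.32 to 0.23) in vector cells and -0.14 ± 0.13 (-0.42 to 0.13) in JUN cells.

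ADAM10 (Entrez 102, chromosome 15, 58881008 to 59041990, minus strand), the sheddase of Notch receptors and E-cadherin, had 85.5, 69.5 and 84.7 CPM in vector EtOH and 71.6, 102 and 80.0 in vector Dox. With JUN it had 133, 126 and 103 CPM in EtOH and 122, 111 and 89.8 CPM in Dox. The uninduced groups did not overlap, while vector Dox and JUN Dox did. The JUN vector gave 0.60 ± 0.15 without induction, which was called, and 0.34 ± 0.15 with induction, which was not. The latter was called without vector Dox replicate 2 (0.51), without JUN Dox replicate 3 (0.46) and with a term for each library's GC trend (0.34). Induction gave 0.08 ± 0.15 in vector cells (95% interval -0.24 to 0.40) and -0.17 ± 0.15 in JUN cells (-0.48 to 0.15).

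ADAM9 (Entrez 8754, chromosome 8, 38854273 to 38962964, plus strand) is a broadly expressed and catalytically active ADAM. It had 141, 131 and 132 CPM in vector EtOH and 159, 156 and 137 after Dox. The JUN cells had 297, 268 and 220 CPM with EtOH and 319, 237 and 163 with Dox. All JUN libraries were above all vector libraries, and the induced and uninduced groups overlapped in both backgrounds. The JUN vector gave 0.96 ± 0.18 without induction and 0.67 ± 0.18 with it, both called. Without JUN Dox replicate 1 the latter was 0.41 and was not called.

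ADAM19 (Entrez 8728, chromosome 5, 156822542 to 157002783, minus strand), which can process neuregulins, had 2.59, 2.89 and 2.38 CPM in vector EtOH and 2.70, 2.70 and 1.86 in vector cells after Dox. The JUN cells had 8.80, 6.78 and 8.68 CPM with EtOH and 6.82, 6.66 and 5.54 with Dox. The lowest JUN library was well above the highest vector library. The JUN vector gave 1.63 ± 0.18 without and 1.39 ± 0.19 with induction, both called. Induction gave -0.11 ± 0.20 in vector cells and -0.35 ± 0.17 in JUN cells (95% interval -0.72 to 0.01), neither of them called.

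ADAM8 (Entrez 101, chromosome 10, 135075924 to 135090372, minus strand), a protease best known from leukocytes and also found in epithelial tumours, was the rarest of the 9 in vector EtOH. It had 0.114, 0.798 and 0.583 CPM there and 0.305, 0.315 and 0.165 in vector Dox. With the JUN vector it had 2.55, 4.05 and 2.11 CPM before and 1.56, 1.34 and 0.604 after induction. The vector groups overlapped each other, and JUN EtOH was above all other libraries. It reached the level of the filter, 0.442 CPM, in all 6 JUN libraries but in 2 of the 6 vector libraries, so it entered the fit through the groups where it was high. These are 3 to 16 counts per library in vector EtOH and 45 to 96 in JUN EtOH. Because of how it entered the fit, its fold changes with the JUN vector describe these counts and carry no test. They were 2.60 ± 0.48 without and 2.11 ± 0.58 with induction. Induction in JUN cells gave -1.35 ± 0.43 and was called lower, but the call was lost in 4 of 12 fits that each left out a library, with -1.43, -1.03, -1.48 and -1.01 without JUN EtOH replicates 1 and 2 and JUN Dox replicates 2 and 3. The leukocyte markers were highest in vector EtOH, where ADAM8 was low.

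In each JUN group, replicate 3 had the lowest level of ADAM9, ADAM10 and ADAM17, whose transcripts are poor in G and C (38.7%, 37.5% and 42.1% against a median of 48.3% over the genes tested). Replicate 3 was also the library whose deviations from the group mean rose most with the GC content of the gene, with a correlation over 14175 genes of 0.229 in JUN EtOH and 0.369 in JUN Dox, while replicate 1 had -0.213 and -0.365. In a fit with a term for this GC trend, added after seeing the data, the JUN vector gave 0.95, 0.59 and 0.59 for ADAM9, ADAM10 and ADAM17 without induction and 0.62, 0.34 and 0.49 with it, all 6 of them called, against 0.96, 0.60 and 0.59 and 0.67, 0.34 and 0.49 without the term. The term was built from deviations from each group's mean, so it could hardly move fold changes between groups. It took up spread within groups: for ADAM9 without induction the SE was 0.08 with the term and 0.18 without. The near-equal values and the calls therefore do not test what part the GC trend has in them.

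Some of these genes share their position with others, and no use of strand is stated for the counting, so their values are uncertain to that extent. ADAM17 overlaps exons of IAH1 on the opposite strand, which had a log2 fold change of 0.28 ± 0.10 with the JUN vector alone (edgeR adjusted p = 0.0415). ADAM9 overlaps TM2D2, whose change there was 0.30 ± 0.12 (edgeR adjusted p = 0.0556). ADAM19 overlaps CYFIP2, which fell with the JUN vector by 1.89 on the log2 scale (edgeR adjusted p = 5.97e-07) while ADAM19 was higher. TM2D2 and CYFIP2 meet only exons of non-canonical transcripts. Exons of ADAM10 overlap those of a long non-coding RNA on the opposite strand, for which no counts were found. HSP90AB4P, a pseudogene inside ADAM10, meets none of its exons. ADAM17 also shares exon positions with long non-coding RNAs on the opposite strand, again without counts.

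With induction in vector cells, 3 of the 9 proteases were called higher and 0 lower, where 15.6% of the 14775 genes tested were called higher and 14.4% lower at an edgeR adjusted p under 0.05. With the JUN vector alone 7 were called higher and 1 lower (all genes 20.1% and 18.9%). With induction in JUN cells 2 were called higher and 2 lower (all genes 11.2% and 10.3%). With the JUN vector under induction 6 were called higher and 1 lower (all genes 18.4% and 17.2%). In the interaction 1 was called higher and 0 lower (all genes 0.291% and 0.826%). The median log2 fold change over the 9 proteases was 0.08, 0.96, -0.14, 0.67 and -0.29 in these comparisons, in the same order, against 0.007, 0.001, 0.003, 0.003 and 0.012 over all genes tested. Because the list was chosen from these values, the counts and medians carry no test. ADAM8, counted as higher with the JUN vector in both states, also entered the fit through the JUN groups. The pairwise comparisons share groups with each other and are not independent.

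**Figure D3:**
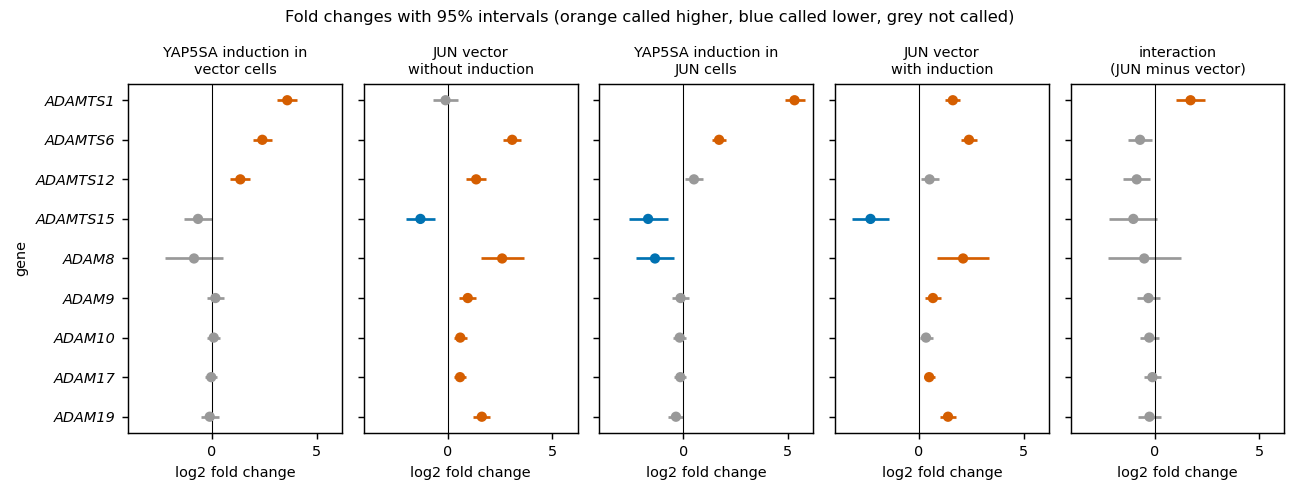
Log2 fold change of each protease gene with its 95% interval in the 5 comparisons, called genes in colour and the others in grey, 3 libraries per group. ADAMTS1 (3.59 and 5.31) and ADAMTS6 (2.40 and 1.71) lie above 0 with induction, whereas ADAM9, ADAM10, ADAM17 and ADAM19 lie near 0 with induction and above 0 with the JUN vector.

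The means of log2 CPM differed between the highest and lowest group by 5.28 for ADAMTS1, a range exceeded by 26 of the 14775 genes tested, and by 4.75 for ADAMTS6, exceeded by 56. ADAM8 (3.08) and ADAMTS15 (2.59) followed, while ADAM17 (0.64) and ADAM10 (0.59) varied least. Over the 12 libraries, which fall into 4 groups, the Pearson correlation of log2 CPM was 0.73 to 0.94 between any pair of the 5 ADAM genes and -0.24 to 0.11 between ADAMTS1 and these genes. ADAMTS6 and ADAMTS12 had 0.88 with each other, and ADAMTS15 had between -0.46 and -0.90 with all others. These are descriptions over libraries that share groups.

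The pattern most like that of ADAMTS6 among 11403 candidate genes averaging 5 CPM or more was that of AREG, the EGF receptor ligand amphiregulin and a substrate of ADAM17, whose reads may be shared with a near-identical copy in hg19 (Pearson r = 0.987, 12 libraries). AREG had means of 213 and 573 CPM in the vector cells without and with induction and of 790 and 1640 CPM in the JUN cells. PGAM1P5 (0.986), a pseudogene whose reads may belong to related sequences, and NTN4 (0.983), a basement membrane netrin, came next. For ADAMTS1 the nearest were ATP8B1-AS1 (0.987), EFHC2 (0.986) and ATP8B1 (0.985), the first and last being an antisense pair that these counts cannot separate. ATP8B1 had means of 5.39 CPM in vector EtOH and 32.3 CPM in JUN Dox. For ADAM8 they were ZSCAN30 (0.951), BTBD8 (0.944) and PRCP (0.939), and for ADAMTS15 SDHA (0.975), CES1 (0.970) and TPD52L1 (0.969).

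The lists of relatives, regulators and substrates that follow were chosen with earlier results of these data known. Their counts beside the shares of all genes are a description and carry no test of a list. The adjusted p-values of their genes are to be read with this choice in view. Of the 16 other ADAM genes looked up, 4 passed the filter on low counts. ADAM15, an adhesion-linked ADAM, fell with induction in vector cells by 0.42 (edgeR adjusted p = 0.0154) and with the JUN vector alone by 0.43 (edgeR adjusted p = 0.0107) on the log2 scale. ADAM12, an ADAM of mesenchymal and tumour tissue, had -0.59 (edgeR adjusted p = 0.0288) and -0.62 (edgeR adjusted p = 0.0195) in these comparisons. In the other 3 comparisons edgeR and DESeq2 called 0 of the 4, of which 1, 1 and 0 had an unadjusted p under 0.05 in edgeR. Over all genes, 11.2% were called higher and 10.3% lower with induction in JUN cells. The shares were 18.4% and 17.2% with the JUN vector under induction and 0.291% and 0.826% in the interaction. With 4 genes tested, 0 calls says little about this list. ADAM15 lost its call on induction without vector EtOH replicate 3 (-0.41) and its call with the JUN vector without JUN EtOH replicate 1 (-0.39). ADAM12 lost the former without vector EtOH replicate 1 (-0.43), vector EtOH replicate 3 (-0.61) or vector Dox replicate 1 (-0.42), and the latter without vector EtOH replicate 1 (-0.46) or JUN EtOH replicate 2 (-0.50) or 3 (-0.59).

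Of the 15 other ADAMTS genes, 11 were tested. Of these, ADAMTS4, ADAMTS16 and ADAMTS18 reached the level of the filter (0.442 CPM) in all libraries of only 1 group, the one where they were highest, so their levels are given without a fold change or p. ADAMTS4, a major aggrecanase, had 0.0380 to 0.135 CPM in the 6 vector libraries, 1.32, 1.56 and 0.845 CPM in JUN EtOH and 0.301, 0.432 and 0.604 CPM after Dox in JUN cells. ADAMTS16 had 0.986 to 1.05 CPM in JUN EtOH and at most 0.702 CPM in the others. ADAMTS18 had 1.44, 1.26 and 2.81 CPM in vector Dox and at most 0.853 CPM elsewhere. The JUN libraries of ADAMTS4 were all above its vector libraries. Among the other 8 genes, ADAMTS13, the von Willebrand factor protease, rose with induction in vector cells (0.49 ± 0.12, edgeR adjusted p = 0.00753) and in JUN cells (0.48 ± 0.12, edgeR adjusted p = 0.0119), the latter call being lost without JUN EtOH replicate 2 (0.42) or JUN Dox replicate 3 (0.36). ADAMTS7 fell with induction in vector cells (-0.73 ± 0.18, edgeR adjusted p = 0.0073). ADAMTS9, another versican-cutting protease, rose with the JUN vector alone (1.19 ± 0.29, edgeR adjusted p = 0.00497) and was named after its value was seen. The interaction called 0 of the 11 in edgeR and DESeq2 (all genes 0.291% higher and 0.826% lower in edgeR), and 0 had an unadjusted p under 0.05.

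The ADAMTS-like proteins share the ancillary domains of ADAMTS proteases but have no catalytic domain. Of 7, 6 were tested, with 0 higher and 1 lower on induction in vector cells (all genes 15.6% and 14.4%), 1 and 2 with the JUN vector alone (20.1% and 18.9%), 0 and 2 on induction in JUN cells (11.2% and 10.3%), and 1 and 2 with the JUN vector under induction (18.4% and 17.2%). In the interaction 0 were called by edgeR or DESeq2 (all genes 0.291% and 0.826% in edgeR), and 0 had an unadjusted p under 0.05. ADAMTSL5 rose with the JUN vector by 1.07 ± 0.16 (edgeR adjusted p = 0.000106) without and 1.36 ± 0.16 (edgeR adjusted p = 1.51e-05) with induction. ADAMTSL4, a microfibril protein of the eye, had -0.95 ± 0.15 (edgeR adjusted p = 0.000294) with induction in vector cells and -0.74 ± 0.15 (edgeR adjusted p = 0.00172) with the JUN vector alone. PAPLN was called lower with induction in JUN cells (-0.86 ± 0.29, edgeR adjusted p = 0.0489), ADAMTSL3 with the JUN vector under induction (-0.89 ± 0.33, edgeR adjusted p = 0.0453) and THSD4 with the JUN vector in both states (-0.34 and -0.36, edgeR adjusted p = 0.0451 and 0.037). Each of these 4 calls was lost in 6 to 9 of the 12 fits that left out a library. The replicate block also ended those of PAPLN (-0.87, edgeR adjusted p = 0.0527) and of THSD4 with the JUN vector alone (-0.34, edgeR adjusted p = 0.052), and DESeq2 that of ADAMTSL3 (-0.91, adjusted p = 0.0627).

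The 13 genes of ADAM maturation and trafficking were all tested. They comprise furin-type convertases, the iRhom proteins and FRMD8 that carry ADAM17, and the tetraspanins that carry ADAM10. Of them, 2 rose and 3 fell with induction in vector cells (all genes 15.6% and 14.4%), and 6 rose and 3 fell with the JUN vector alone (20.1% and 18.9%). With induction in JUN cells 2 rose and 3 fell (11.2% and 10.3%), and with the JUN vector under induction 5 rose and 1 fell (18.4% and 17.2%). The interaction called 0 of them in edgeR and DESeq2 (all genes 0.291% and 0.826% in edgeR), and 1 had an unadjusted p under 0.05 in edgeR. TSPAN5, an ADAM10 partner, rose with induction in vector cells by 0.60 ± 0.11 (edgeR adjusted p = 0.000638) and in JUN cells by 0.49 ± 0.10 (edgeR adjusted p = 0.00363), with means of 19.1 and 28.9 CPM in vector cells and of 30.5 and 42.9 CPM in JUN cells. TSPAN14 rose too, by 0.42 ± 0.10 (edgeR adjusted p = 0.00527) and 0.45 ± 0.10 (edgeR adjusted p = 0.00461). With the JUN vector alone the convertase PCSK5 rose by 1.08 ± 0.16 (edgeR adjusted p = 0.000107) and its relative PCSK6 fell (-0.75 ± 0.12, edgeR adjusted p = 0.000207). FURIN fell with induction in vector cells (-0.61 ± 0.11, edgeR adjusted p = 0.000555) and in JUN cells (-0.56 ± 0.11, edgeR adjusted p = 0.00164). TSPAN10, a low ADAM10-carrying tetraspanin with 0.569 to 3.39 CPM in the group means, was called lower with induction and higher with the JUN vector in both states, up to 1.57 ± 0.37 (edgeR adjusted p = 0.00417). TSPAN33 had -0.94 ± 0.21 (edgeR adjusted p = 0.00349) with the JUN vector alone, and TSPAN15 had -0.78 ± 0.28 (edgeR adjusted p = 0.0447) with induction in vector cells. The calls of TSPAN10 on induction and of TSPAN15 were lost in several fits without a single library, for TSPAN15 without vector Dox replicate 3 (-0.61), among others. The iRhom gene RHBDF1, named after its value was seen, had 0.90 ± 0.16 (edgeR adjusted p = 0.000459) with the JUN vector alone.

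Of the 6 inhibitors looked up, 4 were tested, with 0 higher and 1 lower on induction in either background (all genes 15.6% and 14.4% for vector cells against 11.2% and 10.3% for JUN cells). With the JUN vector 2 were higher and 1 lower, both without (20.1% and 18.9%) and with induction (18.4% and 17.2%). The interaction called 0 in edgeR and DESeq2 (all genes 0.291% and 0.826% in edgeR), and 0 had an unadjusted p under 0.05. TIMP1, which inhibits ADAM10 and many matrix metalloproteinases, was the most abundant in CPM, with 1460 ± 82.1 in vector EtOH and 906 ± 103 after Dox, and 415 ± 61.4 and 353 ± 98.4 in the respective JUN groups. It fell with induction in vector cells (-0.69 ± 0.18, edgeR adjusted p = 0.00843) and with the JUN vector without (-1.81 ± 0.18, edgeR adjusted p = 2.92e-06) and with induction (-1.36 ± 0.18, edgeR adjusted p = 4.08e-05). TIMP2 and RECK, a membrane-anchored protease inhibitor, rose with the JUN vector alone by 0.77 ± 0.13 (edgeR adjusted p = 0.000328) and 1.15 ± 0.21 (edgeR adjusted p = 0.000685). TIMP2 fell with induction in JUN cells (-0.51 ± 0.13, edgeR adjusted p = 0.0107), a call lost without JUN EtOH replicate 3 (-0.42). TIMP3, the TIMP that inhibits ADAM17 and ADAMTS proteases, had means of 115, 119, 122 and 120 CPM and log2 fold changes of -0.03 to 0.09 in the pairwise comparisons, none of which passed the test in edgeR (the smallest adjusted p was 0.445).

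Among 26 membrane proteins that ADAM proteases are known to shed, 21 were tested. Induction in vector cells raised 3 and lowered 6 (all genes 15.6% and 14.4%), and the JUN vector alone raised 14 and lowered 2 (20.1% and 18.9%). Induction in JUN cells raised 4 and lowered 11 (11.2% and 10.3%), and the JUN vector under induction raised 13 and lowered 3 (18.4% and 17.2%). The EGF family ligands among them differed from each other. NRG1, a ligand of ERBB3 and ERBB4, had means of 1.61 ± 0.386 and 26.1 ± 3.54 CPM in vector cells without and with induction and of 1.45 ± 0.123 and 9.07 ± 0.498 CPM in JUN cells. It rose with induction by 3.99 ± 0.17 in vector cells (edgeR adjusted p = 7.47e-10) and 2.64 ± 0.18 in JUN cells (edgeR adjusted p = 1.64e-07). EREG, HBEGF and EPGN were instead higher with the JUN vector: EREG rose by 2.57 ± 0.19 (edgeR adjusted p = 1.53e-07) and HBEGF by 2.19 ± 0.17 (edgeR adjusted p = 2.92e-07) without induction, and EPGN by 2.90 ± 0.15 (edgeR adjusted p = 3.83e-09) with induction. EREG fell with induction in vector cells (-1.18 ± 0.20, edgeR adjusted p = 0.000461) and in JUN cells (-1.10 ± 0.18, edgeR adjusted p = 0.000535). AREG rose in all 4 pairwise comparisons, by 1.43 ± 0.16 with induction in vector cells (edgeR adjusted p = 1.14e-05) and by 1.05 ± 0.16 in JUN cells (edgeR adjusted p = 0.000287). L1CAM, an adhesion molecule, fell with induction in both backgrounds (-1.39 ± 0.17, edgeR adjusted p = 2.12e-05, and -1.20 ± 0.16, edgeR adjusted p = 6.79e-05). With the JUN vector, the chemokine CXCL16 fell without induction (-0.82 ± 0.15, edgeR adjusted p = 0.000589), as did NOTCH1 (-0.54 ± 0.16, edgeR adjusted p = 0.0154, lost without vector EtOH replicate 1 at -0.43 or JUN EtOH replicate 2 at -0.50). Under induction it lowered NRG1 (-1.52 ± 0.14, edgeR adjusted p = 1.61e-06) and E-cadherin, CDH1 (-1.14 ± 0.12, edgeR adjusted p = 5.06e-06). The interaction called 5 of the 21, all lower (all genes 0.826% lower). As this list was chosen with earlier results of these data known, its counts carry no test against the shares of all genes.

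Of 15 matrix proteins that ADAMTS proteases bind or cut, 8 were tested, of which 1 rose and 4 fell with induction in vector cells (all genes 15.6% and 14.4%) and 4 rose and 2 fell with the JUN vector alone (20.1% and 18.9%). With induction in JUN cells 1 rose and 3 fell (11.2% and 10.3%), and with the JUN vector under induction 4 rose and 2 fell (18.4% and 17.2%). VCAN, the proteoglycan versican cut by ADAMTS1, had 159 ± 30.3 CPM in vector EtOH and 95.6 ± 35.6 after Dox, and 467 ± 49.1 and 355 ± 31.4 CPM in the JUN groups. FBN1, the microfibril protein fibrillin-1, rose with the JUN vector by 2.99 ± 0.17 (edgeR adjusted p = 8.68e-09) without and 2.65 ± 0.17 (edgeR adjusted p = 2.79e-08) with induction. LTBP1, which holds latent TGF-beta in the matrix, fell with induction in vector cells (-1.28 ± 0.12, edgeR adjusted p = 1.03e-06) and rose with the JUN vector alone (1.61 ± 0.11, edgeR adjusted p = 9.87e-08). THBS1, the matrix protein thrombospondin-1 and a known substrate of ADAMTS1, had 108 ± 21.4 CPM in vector EtOH and 1340 ± 194 after Dox, against 27.3 ± 2.13 and 101 ± 8.74 CPM in the JUN groups. It rose with induction by 3.63 ± 0.16 in vector cells (edgeR adjusted p = 9.81e-10) and by 1.89 ± 0.15 in JUN cells (edgeR adjusted p = 8.84e-07). Its interaction was -1.75 ± 0.21 (edgeR adjusted p = 0.000401), while that of ADAMTS1 was 1.72 ± 0.33, so the JUN vector came with a lower induction of THBS1 and a higher one of ADAMTS1. BCAN, the proteoglycan brevican, fell in all 4 pairwise comparisons, by 0.72 to 1.31 on the log2 scale. The interaction called 2 of the 8, THBS1 lower and LTBP1 higher (all genes 0.291% higher and 0.826% lower).

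**Figure D4:**
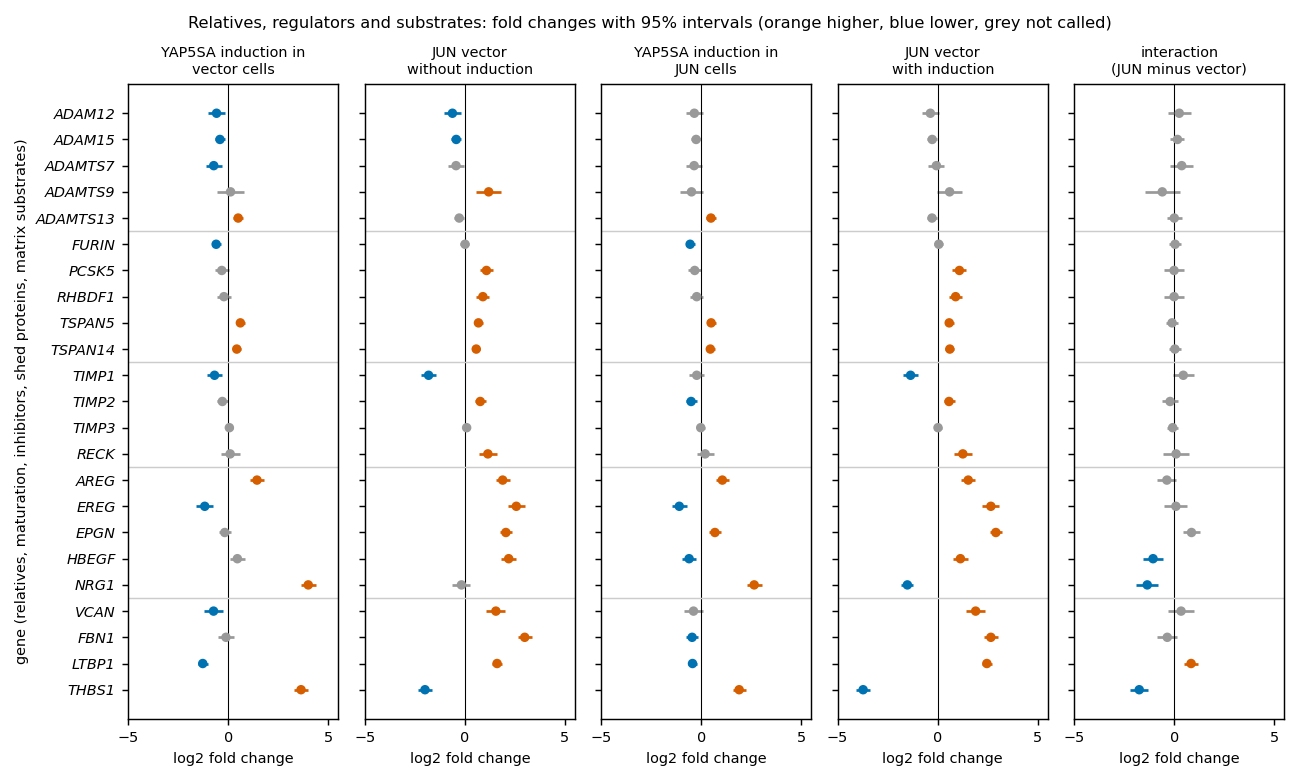
Log2 fold change with 95% interval of 23 relatives, regulators and substrates of the proteases in the 5 comparisons, called genes in colour and the others in grey, with lines between the gene groups. TIMP1 is lower with the JUN vector (-1.81 and -1.36) while TIMP3 stays near 0, and THBS1 is higher with induction and lower with the JUN vector.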

How the data were processed

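The deposited values are the authors' raw counts per gene, not normalized, for 12 libraries (3 per group). They trimmed single-end reads of poly(A) RNA with Cutadapt, aligned them to hg19 with Bowtie2 at default settings and counted them with countOverlaps. The submitters' processing notes give Cutadapt 4.2 and Bowtie2 2.3.5.1, while annotation and strand are not given in the sources used here. Unspliced alignment loses reads across exon junctions.

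A RefSeq gene table (GRCh38.p14, names only) gave symbols for 99.4% of the 23459 IDs. Positions and exons are from GENCODE v44lift37 on GRCh37, 1-based. edgeR 4.0.16 (R 4.3.3) fitted 1 robust quasi-likelihood model to all libraries (TMM, filterByExpr with a minimum count of 10 and total of 15, 14775 genes), and genes were called at a Benjamini-Hochberg adjusted p under 0.05. CPM used TMM-scaled library sizes, and log2 CPM a prior count of 2. Errors are SD over libraries for levels and SE for log2 fold changes, and all intervals of fold changes are at 95%. The script was tested on simulated data.

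The members and lists were chosen with earlier results of these data known. Named genes were the 9 proteases, JUN, YAP1 and CCN1, up to 2 called genes with the highest and 2 with the lowest change per list and comparison, and the 3 nearest patterns for the 4 most variable proteases. Genes that overlap a protease, and ADAMTS9, RHBDF1, TIMP3 and VCAN, lie outside this rule and were named after their values were seen. Alternatives were DESeq2 1.42.0, RLE or upper-quartile factors, no filter, a mean of at least 5 CPM, only the libraries compared, a replicate block and each library left out. A term for the GC trend was added after seeing the data. Counts of replicate pairs differed by more than sampling noise in every group. Same-numbered libraries did not deviate together throughout (correlations -0.258 to 0.466), and the main fit did not pair them. This cannot exclude a pairing: all pairs of replicate 3 correlated above 0. JUN EtOH and JUN Dox had 0.283, 0.012 and 0.466 in replicates 1, 2 and 3.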

Additional observations from a re-analysis of the deposited data

Results flagged for a closer look

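The interaction term of the edgeR fit sets the change with YAP5SA induction in JUN cells against that in vector cells. It was called for the protease ADAMTS1 and for 7 genes of the lists of shed proteins and matrix substrates. These lists too were chosen with earlier results of these data known. For ADAMTS1 induction changed the level by 3.59 (vector cells) against 5.31 (JUN cells) on the log2 scale, a difference of 1.72 ± 0.33 that passed the threshold in the fit over all 12 libraries and in 10 of the 12 fits that left out a library. This difference is given without a p because the gene was listed with these values in view. The threshold and the fits that left out a library therefore describe it and do not test it.

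THBS1 differed the other way, by -1.75 ± 0.21 (edgeR adjusted p = 0.000401), as did NRG1 by -1.35 ± 0.26 (edgeR adjusted p = 0.0151). SDC4, a syndecan, differed by -1.11 ± 0.20 (edgeR adjusted p = 0.0103) and the adhesion protein CDH1 by -1.03 ± 0.17 (edgeR adjusted p = 0.00541), with a change of 0.00 in vector cells and -1.03 in JUN cells. ICAM1 differed by -0.99 ± 0.18 (edgeR adjusted p = 0.0125) and HBEGF by -1.06 ± 0.24 (edgeR adjusted p = 0.0464). LTBP1 differed by 0.84 ± 0.16 (edgeR adjusted p = 0.0151), with -1.28 in vector cells and -0.44 in JUN cells. Leaving out a library in turn, the call of HBEGF was lost in 9 of 12 fits and held only without vector Dox replicate 2 (-1.17), JUN EtOH replicate 3 (-1.18) or JUN Dox replicate 1 (-1.15), with a lowest size of -0.847 without JUN EtOH replicate 1. That of NRG1 was lost without vector EtOH replicate 3 (-1.32) or JUN EtOH replicate 1 (-1.28), that of LTBP1 without vector EtOH replicate 1 (0.75) or JUN EtOH replicate 2 (0.81), and that of ICAM1 without vector EtOH replicate 3 (-0.952). The calls of THBS1, SDC4 and CDH1 held in all 12. The interactions of HBEGF, ICAM1 and CDH1 were named after their values were seen. Groups of 3 libraries are too small for a test of single outlying libraries.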

How the results depend on the processing

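Of 875 fold changes of the 9 proteases over all alternatives, 872 moved by less than the spread between replicates and 3 moved by more. Of those called in the main fit, 0 changed sign, while changes of sign among values not called were not counted. The 3 were ADAMTS15 with induction in JUN cells (-2.042) and in the interaction (-1.374), both without JUN Dox replicate 3, and ADAMTS6 in the interaction (-0.992 without vector EtOH replicate 2). At a mean of at least 5 CPM, only 6 proteases were tested (ADAM8, ADAM19 and ADAMTS15 were not), of which 5 were called with the JUN vector alone and 2 with induction in JUN cells. Leaving out a library in turn, the number of proteases called was 2 (without JUN Dox replicate 2) to 5 with induction in JUN cells and 0 (without vector EtOH replicate 1 or 3) to 1 in the interaction. The genes called overall were 3823 (without JUN EtOH replicate 1) to 6765 with the JUN vector alone, 2082 (without JUN EtOH replicate 2) to 3861 with induction in JUN cells and 97 (without vector EtOH replicate 3) to 242 in the interaction, where 107 and 99 were called without JUN EtOH replicate 1 and 2. With only the libraries compared, 3439 genes were called with the JUN vector under induction. In the interaction DESeq2 called 340 genes and the fit with the added GC term 292, against 165 in the edgeR fit, and the cause was not tested. With the replicate number as a block, the proteases called were 3, 8, 4, 7 and 1 in the 5 comparisons, the same numbers as without the block, and the interaction called 197 genes. ADAM8 and ADAMTS15 rest on at most 96 and 35 counts in a library, which limits their precision.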
